A study of Homo sapiens with 12 samples.

Results

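Glucose uptake and the enzymes that turn glucose into lactate were described here through 10 genes: SLC2A1, SLC2A3, HK2, PFKP, ALDOA, GAPDH, PGK1, ENO1, PKM and LDHA. They were taken by gene name from the 25914 genes listed for RNA-seq of RPE-1 cells, the hTERT-immortalized line from retinal pigment epithelium, and of HCT116 cells, an epithelial colon cancer line. All 10 names were found exactly once in both tables. The 12 libraries came from wild-type cells of both lines that received 10 µM Nutlin-3a or DMSO as the control and were harvested after 24 h, with 3 libraries in each of the 4 groups. Per the labels, HCT116 cells grew in DMEM rich in glucose with pyruvate and RPE-1 cells in DMEM:F12, so line and medium cannot be told apart. Nutlin-3a keeps MDM2 from binding p53 and so lets p53 accumulate.

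The tables give no values per library. Their only level per gene is the authors' mean normalized count, and it is identical in the RPE-1 and the HCT116 table for all 25914 genes. The mean was therefore not taken over the libraries of one line alone, and which libraries it covers, across both treatments or beyond, is not given in the sources used here. It describes neither RPE-1 nor HCT116 cells by themselves. GREB1, GATA3 and TFF1, known for their expression in luminal breast epithelium, the tissue of neither line, had means of 19944, 15906 and 13215 and ranked 124, 189 and 250 (genes chosen after their values were seen). The levels below are therefore not to be read as those of the 12 libraries alone. Depth per library and the spread between replicates are unknown, so each value below stands without an error and no difference was tested. The change from DMSO to Nutlin-3a is present only as the authors' own comparison, which was not used, and the response of these genes to Nutlin-3a is not analysed here.

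Glycolysis splits glucose into pyruvate in the cytosol, and lactate dehydrogenase then reduces pyruvate to lactate and regenerates NAD+. Glucose enters through facilitative transporters of the SLC2A (GLUT) family and is trapped by hexokinase. Phosphofructokinase commits it to the pathway, aldolase cleaves it, and the later enzymes recover ATP. Most steps have isozymes encoded by separate genes, and p53 is known to restrain several of the early steps, in part through TIGAR.

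The 10 genes covered a wide range of mean normalized counts, given first without a correction for gene length, and the late enzymes PKM, GAPDH and ENO1 had the highest. PKM (ENSG00000067225), the pyruvate kinase of most proliferating cells, had a mean normalized count of 79744 and ranked 11 of all listed genes. GAPDH (ENSG00000111640), which oxidizes glyceraldehyde 3-phosphate, had 59778 and ranked 18. ENO1 (ENSG00000074800), the widespread enolase, had 44597 and ranked 33. These 3 genes made up 80.0% of the summed mean of the 10. LDHA (ENSG00000134333), the lactate dehydrogenase subunit that favours lactate formation, followed with 13978 at rank 228. SLC2A1 (ENSG00000117394), the basal glucose transporter GLUT1, had 11515 at rank 315, and PGK1 (ENSG00000102144), which forms the first ATP of the pathway, had 8050 at rank 569. PFKP (ENSG00000067057), the platelet-type phosphofructokinase, had 7056 at rank 692.

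The other 3 genes lay outside the 1000 highest. SLC2A3 (ENSG00000059804), the high-affinity transporter GLUT3, had 2661 at rank 2728. HK2 (ENSG00000159399), the inducible hexokinase that binds mitochondria, had 1904 at rank 3936. ALDOA (ENSG00000149925), the aldolase of muscle and most other cells, was the lowest of the 10, with 963.6 at rank 6770. All 10 were above the median of all listed genes, 149.8, and together they held 0.766% of the summed mean.

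**Figure D1:**
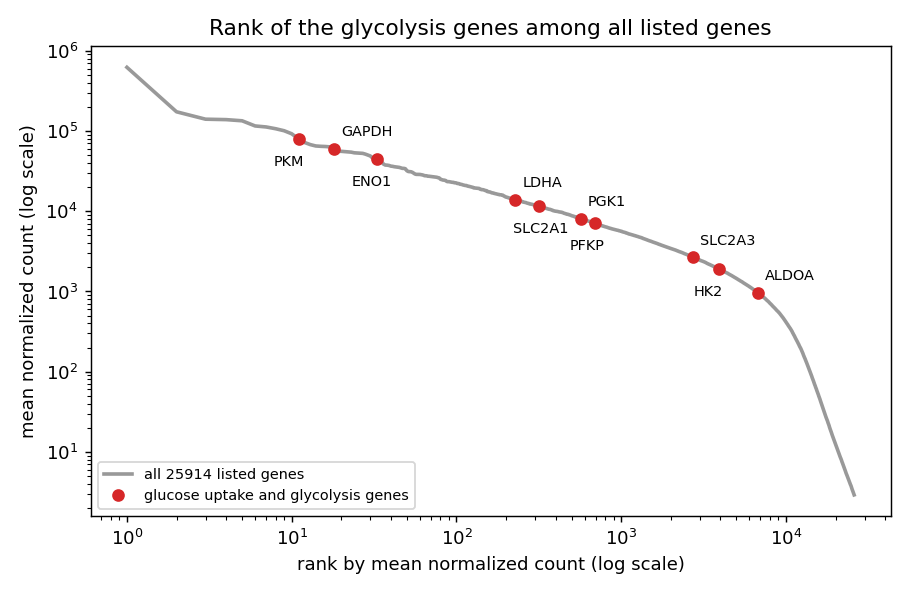
Mean normalized count (log scale) against rank (log scale) for all listed genes as a grey line, with the 10 glucose uptake and glycolysis genes as red points. PKM, GAPDH and ENO1 sit at ranks 11, 18 and 33, whereas SLC2A3, HK2 and ALDOA sit beyond rank 1000; each point is the authors' mean and has no error bar.

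Longer genes collect more reads, so levels were compared between genes per kilobase of annotated exon (GENCODE 44). On this scale GAPDH was highest, with a mean normalized count of 24949 per kb over 2396 bases of exon. PKM had 9303 per kb and ENO1 8550 per kb, below GAPDH by 2.68-fold and 2.92-fold. These gaps depend on the length used, and were 1.46-fold and 1.79-fold by coding length and 1.34-fold and 1.86-fold by the MANE Select transcript, the reference transcript agreed between GENCODE and RefSeq. LDHA had 2320 per kb, SLC2A1 1741, PGK1 1481 and PFKP 907.6. SLC2A3 had 367 per kb, HK2 322 and ALDOA 252, the lowest. GAPDH and ALDOA, which handle consecutive stretches of the same pathway, were thus 99.1-fold apart per kb. Of the ALDOA MANE Select transcript, 89.8% lies in exons of another listed gene, as described below. The part of this overlap in the low ALDOA level was not tested. The order of PFKP and PGK1 and that of HK2 and ALDOA turned with the length used, and without replicate spread no neighbours in the order can be said to differ.

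In 8 of the 9 steps, one of the 10 genes had the highest level per kb among the genes encoding that activity. Of the 29 genes of these steps, 23 were listed. The 6 not listed were SLC2A2, GAPDHS, PGK2, PKLR, LDHAL6A and LDHAL6B, so that GAPDH, PGK1 and PKM were the only listed genes of their steps. At enolase, ENO1 held 94.4% of the summed level per kb, and ENO2, the neuronal form, was 18.8-fold lower with 455 per kb (29.5-fold by the MANE Select transcript). At uptake, SLC2A1 held 80.0% and SLC2A3 16.9%, a ratio of 4.74, and the insulin-responsive transporter SLC2A4 had 56.2 per kb. LDHA held 78.7% of lactate dehydrogenase and LDHB, the subunit typical of heart, 21.1%. The ratio of LDHA to LDHB was 3.73 per kb of exon, 6.26 by coding length and 7.53 without division by length.

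Phosphofructokinase was more evenly divided. PFKP held 46.3% of phosphofructokinase, PFKL, the liver type, 32.6%, and PFKM, the muscle type, 21.1%. Hexokinase was the step whose highest gene was not among the 10. There HK1, the form of most tissues, had 1270 per kb and held 78.3%, against 19.8% for HK2, a ratio of 3.95. By the MANE Select transcript, HK2 held 12.1% and the ratio was 7.16. HKDC1 had 28.0 per kb and HK3 had 1.98. ALDOA held 60.1% of aldolase and ALDOC, the brain form, 39.9% with 167 per kb. With the listed pseudogenes of ALDOA added to the sum, ALDOA held 25.5%. These shares also rest on an ALDOA level that the exon overlap described below may affect, which was not tested.

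**Figure D2:**
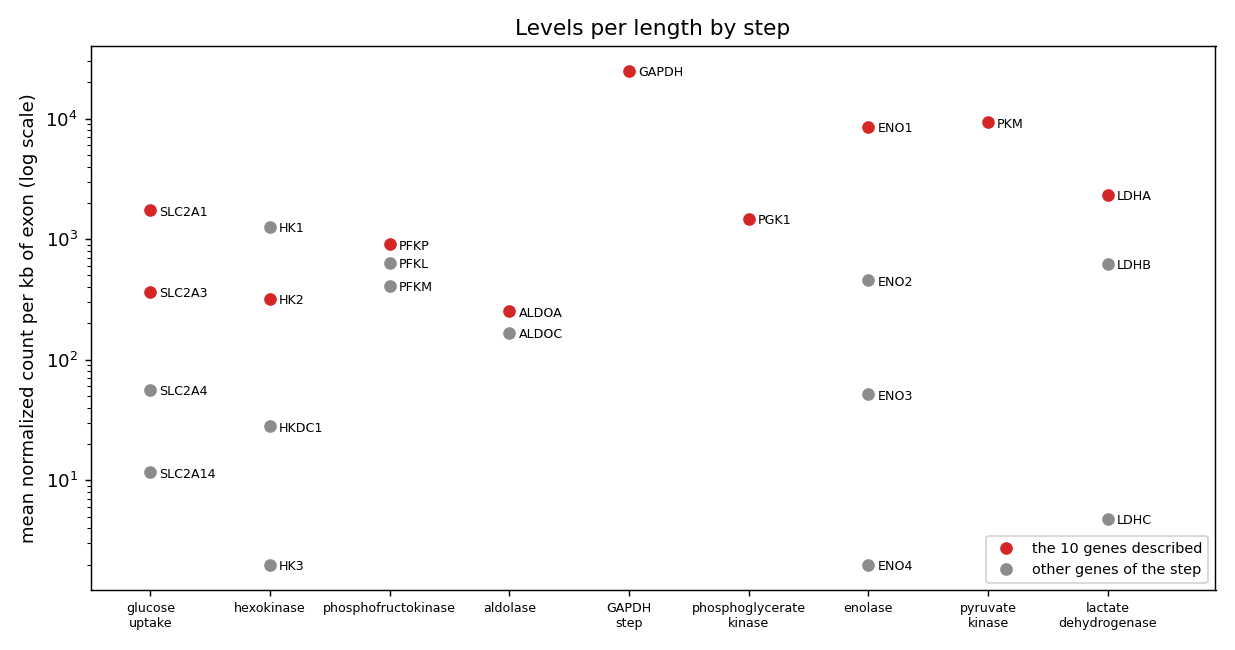
Mean normalized count per kb of exon (log scale) for each listed gene of the 9 steps, with the 10 genes described in red and other genes of a step in grey. A red point is the highest in each step except hexokinase, where HK1 at 1270 per kb lies above HK2 at 322; the points are the authors' means divided by length, without error bars.

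The other pathway genes, a list of 19, were all listed, with mean normalized counts from 6.85 (PGAM2, the muscle phosphoglycerate mutase) to 8854 (GPI, glucose-6-phosphate isomerase). Of these, 16 were above the median of all genes and 3 were among the 1000 highest, namely GPI, TPI1 with 8631 and HIF1A with 7882. TPI1 interconverts the triose phosphates that aldolase releases, and its level of 3197 per kb was 12.7-fold that of ALDOA. The exon overlap of ALDOA described below limits this ratio too. PGAM1, the mutase between PGK1 and ENO1, had 970.9 per kb. The lactate exporters SLC16A3 and SLC16A1 had 466 and 644 per kb of exon. By the MANE Select transcript they had 1658 and 1090 per kb, so their order turned with the length used. TIGAR, a p53 target that lowers fructose 2,6-bisphosphate, had a mean normalized count of 1047, and PFKFB3, which makes this activator of phosphofructokinase, had 2531. TIGAR and PFKFB3 had 111 and 414 per kb of exon but 1293 and 1194 per kb of coding length, so their order turned as well.

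ALDOA shares its exons with another listed gene. On chromosome 16 of GRCh38, ALDOA spans 30064164 to 30070457 on the + strand, and AC093512.2 (ENSG00000285043), listed as protein-coding, overlaps it on the same strand. Of the 1640 bases of the ALDOA MANE Select transcript, 1472 (89.8%) also lie in exons of AC093512.2. Of its 1540 windows of 101 bases, the number of sequencing cycles in the labels, 1373 (89.2%) occur in a transcript of AC093512.2. AC093512.2 itself had a mean normalized count of 89.4. The MANE Select transcripts of the other 9 genes shared no exon base with a listed gene on their strand. How reads lying in exons of both genes were assigned is not given in the sources used here, and its part in the low level of ALDOA was not tested.

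Copies elsewhere in the genome shared fewer windows. SLC2A3 shared 7.03% of its windows of 101 bases with other loci, through SLC2A14, its neighbour on chromosome 12, which had a mean normalized count of 64.8. HK2 shared 2.77%, with the pseudogene HK2P1, and LDHA 0.514%. For the other 7 genes, GAPDH included, no window of this length was found in the GENCODE 44 transcripts of a gene at another locus. With windows of 50 bases, SLC2A3 shared 24.7%, GAPDH 20.4%, LDHA 12.2% and HK2 8.80%. PGK1 then shared 3.57%, ENO1 3.46%, PKM 2.66% and ALDOA 0.691%, and only SLC2A1 and PFKP shared none.

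**Figure D3:**
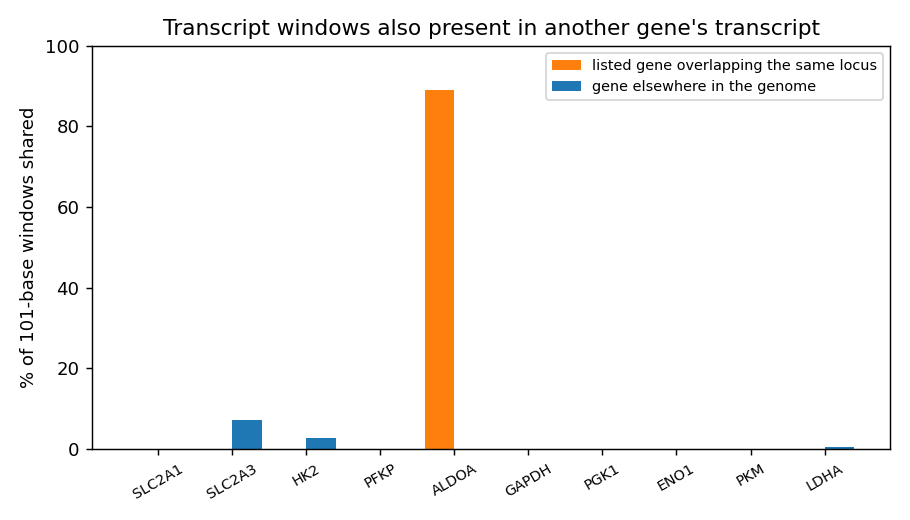
Share of the 101-base windows of each MANE Select transcript (%) that also occur in a transcript of a listed gene overlapping the same locus (orange) or of any gene elsewhere (blue). ALDOA stands at 89.2% at its own locus, and SLC2A3 (7.03%), HK2 (2.77%) and LDHA (0.514%) are the only genes with shared windows elsewhere.

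Pseudogenes, most of them processed, that is intronless copies made by reverse transcription of an mRNA, were listed for 8 of the 10 genes and for neither SLC2A1 nor PFKP. The 38 named pseudogenes, 37 of them listed as processed, had a summed mean normalized count of 23775, not divided by length, which is 10.3% of the sum of the 10 genes. GAPDH had 21 of them, with a sum of 18848 or 31.5% of GAPDH itself. GAPDHP1 (ENSG00000228232), on chromosome X from 39787132 to 39788136, reached 10116 and is 95.9% identical to the GAPDH transcript over 1008 aligned positions. GAPDHP63 and GAPDHP65 followed with 2064 and 1916. The sum was 63.5% of the parent for ALDOA, with ALDOAP2 at 456.8 and ALDOAP1 at 155.3, 15.8% for PGK1 from PGK1P1 and PGK1P2, and 14.4% for HK2 from HK2P1 alone.

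For the remaining parents the share, also not divided by length, was smaller. It was 4.21% for LDHA from 5 pseudogenes, 3.93% for SLC2A3 from 2, 2.59% for PKM from 4 and 0.0288% for ENO1 from ENO1P3. Per kb, with the listed pseudogenes of a step's genes added to its sum, LDHA held 56.1% of its step and PKM 84.3%. Without them, LDHA held 78.7%, and PKM was the only listed gene of its step. Identity to the parent transcript ran from 70.7% (ENO1P3) to 96.0% (HK2P1), with a median of 90.3%. Per the paper's methods only uniquely mapped reads were kept, so reads fitting several copies equally well are in neither count. The levels of the pseudogenes and of their parents are therefore uncertain, by an amount that the sums do not measure. Whether the pseudogenes are transcribed was not tested.

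The stretch below is the 60 coding bases in which GAPDH and GAPDHP1 differ most, and it is shown because reads are told apart by such differences alone. It lies on the + strand at chr12:6537921-6537980 for GAPDH and on the − strand at chrX:39787218-39787277 for GAPDHP1 (GRCh38), starts at base 863 of the GAPDH coding sequence, and is written 5′ to 3′ with the 8 differing bases in capitals.
GAPDH: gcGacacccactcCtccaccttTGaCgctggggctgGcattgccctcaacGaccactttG
GAPDHP1: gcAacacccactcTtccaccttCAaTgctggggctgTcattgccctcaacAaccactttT

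**Figure D4:**
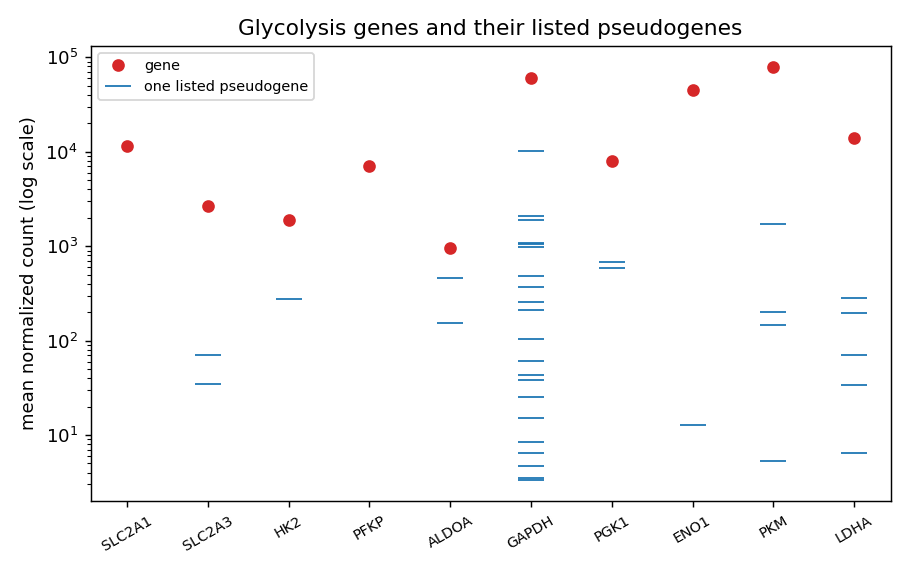
Mean normalized count (log scale) of each of the 10 genes (red points) and of each of their listed pseudogenes (blue dashes, 1 per pseudogene). GAPDH has 21 pseudogenes from 3.34 to 10116, and ALDOAP2 at 456.8 comes closest to its parent at 963.6; values are the authors' means without error bars.

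Transcription on the opposite strand near the promoter was annotated for 6 of the 10 genes. A listed gene on the other strand started within 2500 bases of the MANE Select start of SLC2A1, HK2, PFKP, ALDOA, GAPDH and ENO1, against 4244 of 15478 protein-coding genes (27.4%). Each of the 6 neighbours was a long noncoding RNA that started upstream and was read away from the gene's start, and had a mean normalized count of 3.99% of its partner's or less, not divided by length. SLC2A1-AS1 started 181 bases upstream of SLC2A1 and had 92.4, AC019069.1 started 140 bases upstream of HK2 and had 76.0, and ENO1-AS1 started 149 bases upstream of ENO1 and had 8.27. For PFKP, ALDOA and GAPDH the distances were 1547, 935 and 1019 bases and the means 3.88, 16.2 and 4.95. The neighbours of PFKP, GAPDH and ENO1 thus had means below 10, where the lowest listed mean was 2.91. Neither the count of 6 genes nor the 27.4% set a lower limit on the neighbour's mean. ENO1-AS1 and AC093512.1, the neighbour of ALDOA, also share 126 and 520 exon bases with longer transcripts of their partners on the other strand. AC006064.4, with a mean of 68.6, lies antisense to the 3′ part of GAPDH and shares 422 exon bases with it. The authors counted reads by strand, per the paper's methods.

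The RefSeq promoter windows (GRCh38.p14, 250 bases before to 50 after a start) of SLC2A1, HK2 and ENO1 hold both starts and are printed for that reason. They are written 5′ to 3′ on the strand of the gene, with the bases from the start of the noncoding RNA to the MANE Select start in capitals. The windows are chr1:42958819-42959118 (− strand) for SLC2A1, chr2:74833877-74834176 (+ strand) for HK2 and chr1:8878637-8878936 (− strand) for ENO1.
SLC2A1: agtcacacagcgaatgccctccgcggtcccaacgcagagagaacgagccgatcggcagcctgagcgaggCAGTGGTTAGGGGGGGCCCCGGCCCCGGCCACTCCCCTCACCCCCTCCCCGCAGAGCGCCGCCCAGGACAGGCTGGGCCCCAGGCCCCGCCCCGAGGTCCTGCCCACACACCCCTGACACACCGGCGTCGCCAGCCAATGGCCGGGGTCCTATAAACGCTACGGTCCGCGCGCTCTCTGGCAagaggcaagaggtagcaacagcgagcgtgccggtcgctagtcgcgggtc
HK2: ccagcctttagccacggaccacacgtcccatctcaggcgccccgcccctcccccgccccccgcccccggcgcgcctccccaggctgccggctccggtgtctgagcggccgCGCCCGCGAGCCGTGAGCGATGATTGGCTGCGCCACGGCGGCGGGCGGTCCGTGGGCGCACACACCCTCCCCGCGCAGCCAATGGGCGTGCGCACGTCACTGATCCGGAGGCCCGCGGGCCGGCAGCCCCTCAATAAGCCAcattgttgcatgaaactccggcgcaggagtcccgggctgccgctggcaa
ENO1: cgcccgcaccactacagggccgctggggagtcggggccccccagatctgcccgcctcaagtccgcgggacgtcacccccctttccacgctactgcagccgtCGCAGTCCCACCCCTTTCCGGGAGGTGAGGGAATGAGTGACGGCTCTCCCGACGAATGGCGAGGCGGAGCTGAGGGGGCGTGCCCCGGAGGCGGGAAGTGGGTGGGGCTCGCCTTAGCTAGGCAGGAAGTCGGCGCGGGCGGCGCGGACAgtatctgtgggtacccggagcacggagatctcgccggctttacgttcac

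G and C made up 71.0% of the SLC2A1 window, 74.3% of that of HK2 and 69.7% of that of ENO1. Hypoxia-inducible factors bind a core whose first base is a purine. Its form ACGTG was searched on both strands, where each palindromic CACGTG counts on both, and so was its other form, GCGTG. The first form, ACGTG, occurred at 2 positions in the printed HK2 window and in neither of the other printed windows. GCGTG occurred at 1 position in the SLC2A1 window, 1 in the HK2 window and 2 in the ENO1 window. RefSeq windows were found for 9 of the 10 genes, 16 windows in all, since some genes have several starts, and 9 of these windows from 6 genes held ACGTG. The other form, GCGTG, was held by 9 windows from 7 genes. Among all 35116 promoter windows, 21.4% held ACGTG and 36.5% GCGTG. The longer CACGTG was held by 4 of the 16 windows, from 4 genes, and by 7.26% of all windows. A gene with several windows has more chances of a match, so the counts of genes are not comparable with these percentages. The counts of windows are limited too, since windows of one gene are not independent and some of those of ALDOA overlap. No comparison with windows of like G and C content was made, so no enrichment can be read from these counts. A match describes the letters only, and binding was not measured.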

How the data were processed

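RNA was sequenced from 12 libraries, grouped by cell line and treatment from their titles. Per the paper's methods, the authors trimmed, corrected and mapped reads to hg38 (GRCh38), kept uniquely mapped ones and counted them by strand on Ensembl 102 exons. The submitters' processing notes name Trimmomatic 0.39, cutadapt 3.3, SAMtools 1.12, featureCounts 2.0.1 and DESeq2 1.32.0. These sources differ: depletion of ribosomal RNA stands in the labels and selection of polyadenylated RNA in the published methods, which also give other versions of some tools. Which applied was not settled. The deposited signal is the mean of read counts normalized by the authors in DESeq2, over libraries not given in the sources used here. The other deposited columns hold the authors' own comparison of Nutlin-3a with DMSO (log2 fold change, standard error, statistic and p-values) and were not used.

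Here, means were ranked and divided by the union of GENCODE 44 exons, in which 25836 listed genes were found by identifier. MANE Select transcripts were cut into windows of 101 bases and matched exactly to all GENCODE transcripts. Pseudogenes, named as the gene's symbol, P and a number, were aligned locally in Biopython 1.88 (match 1, mismatch −1, gap opening −3, extension −1). Functions were tested on simulated data. Python 3.11.15, numpy 2.4.6, pandas 2.3.3 and matplotlib 3.10.9 were used. The genes and lists were chosen with earlier results of these data known. Named genes were the 10 genes, those of their steps, at most 10 other pathway genes, the pseudogenes with the highest means, and neighbours on the other strand; genes sharing exons or windows were named after their values were seen. Some items of the planned lists are not reported here. Alternatives covered the table, the genes ranked, low means, gene length, pseudogenes and window length.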

Additional observations from a re-analysis of the deposited data

How the results depend on the processing

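Of 72 values recomputed under alternatives, 60 stayed within 1.5-fold, or kept their place in the order, and 12 moved. Some of the 60 could not have moved, so their number does not measure robustness. The means from either table are identical, and leaving out means below 10 cannot alter the 1000 highest. GAPDH, PGK1 and PKM, the only listed genes of their steps, hold 100% at any length. Adding pseudogenes to a step's sum cannot change which of its genes is highest. The number of the 10 genes among the 1000 highest was 7 with means from either table, among protein-coding genes only and with means of at least 10. The ratio of the highest to the lowest gene per kb was 84.8 with coding length and 137 with the MANE Select transcript. HK2 took place 10 and ALDOA place 9 with both, and PFKP place 6 and PGK1 place 7 with the transcript length. HK2 then held 12.1% of hexokinase. With pseudogenes added to the step, ALDOA held 25.5%, GAPDH 57.7% and PGK1 59.0%. LDHA then held 56.1% and PKM 84.3%, lower than without pseudogenes but within 1.5-fold. Step shares by coding or transcript length and windows of 50 bases were chosen after seeing the data. Protein identities were not computed, as no protein sequences were used here.

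No paired analysis was possible because the values carry no library and no replicate number. No library was omitted, and the planned comparison of Nutlin-3a with DMSO, with its alternatives, was not run. With no counts per library, depth limits cannot be stated.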

Other observations

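Exon sharing of the extent seen at ALDOA was rare. Among 15478 listed protein-coding genes with a MANE Select transcript, 58 (0.375%) shared at least as large a part of that transcript's exons with listed genes on the same strand, ALDOA included, whereas 95.9% shared no base. The limit was set at the value of ALDOA after that value was seen. The median mean normalized count of the 58 genes was 40.5, against 674.3 for the rest, and 2 of the 58 lay above the median of the rest. ALDOA had the highest mean of the 58. These are descriptions over genes, with no test, and their cause was not tested.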
